A study of Mus musculus with 27 samples.

Results

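Of the 21850 genes in the deposited mouse liver count table, 9 that are widely used as readouts of Wnt/β-catenin signalling were followed: Axin2, Lgr5, Rnf43, Znrf3, Tbx3, Glul, Sp5, Nkd1 and Notum. They were chosen by name, as genes known to respond to the pathway, and each matched 1 gene of the table. Earlier results of these data were known when they were chosen. Their RNA was read in 27 bulk libraries, 3 in each of 9 conditions.

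When a Wnt ligand binds a Frizzled receptor and its LRP co-receptor, the complex that marks β-catenin for destruction is held off, and β-catenin enters the nucleus and activates genes together with TCF/LEF factors. Many of the genes switched on in this way feed back on the pathway. R-spondins strengthen the signal by keeping RNF43 and ZNRF3 from removing Frizzled from the cell surface, and small molecules that block the kinase GSK3 act further down by sparing β-catenin directly. In the liver the pathway is most active in the hepatocytes around the central vein, which make glutamine synthetase, and it drives much of the difference between pericentral and periportal hepatocytes.

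All cells came from mice of C57BL/6 background. Freshly isolated hepatocytes formed 1 group. Hepatocyte organoids (HepOrgs) at passage 2 formed 4 groups, grown for 1 or 2 weeks in HM-Wnt or in the minimal medium MM. Periportal assembloids formed the other 4 groups: HepOrgs, cholangiocytes and portal mesenchymal cells were aggregated and kept in MM for 1 or 2.5 weeks, with 250 mesenchymal cells in the homeostasis ratio and 2500 in the fibrosis-like ratio. Both media held 30% Wnt conditioned medium and a ROCK inhibitor. HM-Wnt also held 15% RSPO1 conditioned medium, 3 µM of the GSK3 inhibitor CHIR and a set of growth factors (EGF, FGF7, FGF10, HGF and gastrin) with nicotinamide and the TGF-β receptor inhibitor A83-01. MM held none of these, so the comparison of media removed R-spondin, the GSK3 inhibitor, the growth factors and A83-01 together while the Wnt conditioned medium stayed. The HepOrgs in MM had themselves been expanded in HM-Wnt first, so every organoid group had passed through that medium. The labels call all genotypes WT, except that the third library of fresh hepatocytes is labelled MDR2-het in 1 field and WT in its title. Per the study's methods, assembloids were in most cases built from HepOrgs of wild-type mice with cholangiocytes and mesenchymal cells of 2 reporter lines. The labels do not say whether the 3 libraries of a group came from separate animals or cultures.

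The libraries held between 30289364 and 65348596 counts, with a median of 43727965. Replicate 2 of the homeostasis assembloids at 1 week stood apart: 6625 genes reached 10 counts in it, against 11840 to 14162 in each of the other 26, and 5 of the 9 genes described here had no count in it. Its summed hepatocyte markers (Alb, Apoa1, Ttr, Hnf4a and Cyp3a11) came to 993.7 CPM (each gene's counts scaled to a fixed library total), against 27940 and 14510 CPM in the other libraries of its group. The main tests on that group are given with and without it. Replicate 3 of the fibrosis-like assembloids at 1 week also stood apart in its markers: mesenchyme markers summed to 248.1 CPM in it, against 2276 and 5544 CPM in the others of its group and 259.6 CPM in replicate 3 of the homeostasis ratio, its hepatocyte markers to 1518 CPM against 9754 and 14090 CPM, and its proliferation markers to 207.8 CPM against 77.3 and 23.45 CPM. The cell labels were read against marker sums: the hepatocyte markers came to 54400 to 84300 CPM in fresh hepatocytes and to 12100 to 43100 CPM in HepOrgs, and the 6 cholangiocyte markers (Krt19, Krt7, Epcam, Sox9 and Spp1 among them) to 11.8 to 139 CPM in fresh hepatocytes and to 3500 to 15000 CPM in HepOrgs. In bulk libraries such as these, fewer cells of a type and less RNA per cell cannot be told apart.

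Each gene's position is given on GRCm39, the build the submitters' processing notes name, from the GENCODE annotation. Axin2 lies at chr11:108811169-108841609, Rnf43 at chr11:87553548-87626377, Znrf3 at chr11:5226324-5394939 and Notum at chr11:120541446-120552019. Lgr5 lies at chr10:115286216-115423685, Tbx3 at chr5:119806298-119822797, Glul at chr1:153775690-153785469, Sp5 at chr2:70305267-70308073 and Nkd1 at chr8:89247890-89324577. Lgr5, Znrf3 and Notum are on the minus strand, and all 9 are protein coding.

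Promoter sequence was read for the 5 members with an entry in the RefSeq promoter table of build GRCm38.p6 (Axin2, Rnf43, Glul, Sp5 and Nkd1), taking the 250 bases before each start. The letters searched for were CTTTGAT, the core that TCF/LEF factors bind, and its reverse complement ATCAAAG. Only the Sp5 window of these members held them, once, with the first base 104 bases before the start. The starts are those of the promoter table, which held 2 entries for Rnf43. On GRCm39 both Rnf43 windows and the Nkd1 window lie inside the annotated gene, 1 of the Rnf43 windows wholly in an exon. For these 2 genes the sequence before the annotated gene start was therefore not read. The same letters stood in 1053 of the 32851 windows of that length in the table, or 3.21%. The Sp5 window (chr2:70474673-70474922, plus strand) is shown with the match in capitals, and that of Axin2 (chr11:108920099-108920342, plus strand), the gene most often used as a pathway readout, is shown beside it as a window without the letters, up to the base before the annotated exon.
Sp5: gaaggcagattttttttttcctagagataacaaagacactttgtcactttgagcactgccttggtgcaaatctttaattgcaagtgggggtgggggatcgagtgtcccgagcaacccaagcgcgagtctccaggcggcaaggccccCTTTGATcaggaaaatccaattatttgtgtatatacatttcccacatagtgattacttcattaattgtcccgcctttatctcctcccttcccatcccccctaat
Axin2: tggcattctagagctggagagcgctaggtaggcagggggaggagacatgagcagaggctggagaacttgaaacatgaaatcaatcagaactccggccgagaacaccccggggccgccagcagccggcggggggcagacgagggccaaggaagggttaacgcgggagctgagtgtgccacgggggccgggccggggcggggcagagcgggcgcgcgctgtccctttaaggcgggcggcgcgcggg
A G or C stood at 46% of the bases of the Sp5 window and at 69.2% of the full Axin2 window. The shorter letters CTTTG or CAAAG were found 4 times in the Sp5 window and in 48.6% of all windows. No match says only that these letters are not in this window.

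The 9 genes differed widely in level. Per kilobase of the canonical transcript, which allows genes to be compared, fresh hepatocytes held 90.1 CPM per kb of Glul, 18.6 of Notum, 7.6 of Rnf43, 3.41 of Tbx3, 2.19 of Lgr5, 1.67 of Znrf3, 0.73 of Nkd1, 0.554 of Sp5 and 0.133 of Axin2. Axin2, Sp5 and Nkd1 were therefore read from few counts, and Axin2 had between 12 and 29 counts in the fresh libraries. All other levels below are CPM after TMM scaling over the 27 libraries, which compare 1 gene between libraries and not genes with each other. Log2 fold changes are given ± their standard error, from edgeR's quasi-likelihood test with Benjamini-Hochberg adjustment over all genes tested, and a gene is called when its adjusted p is under 0.05.

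**Figure D1:**
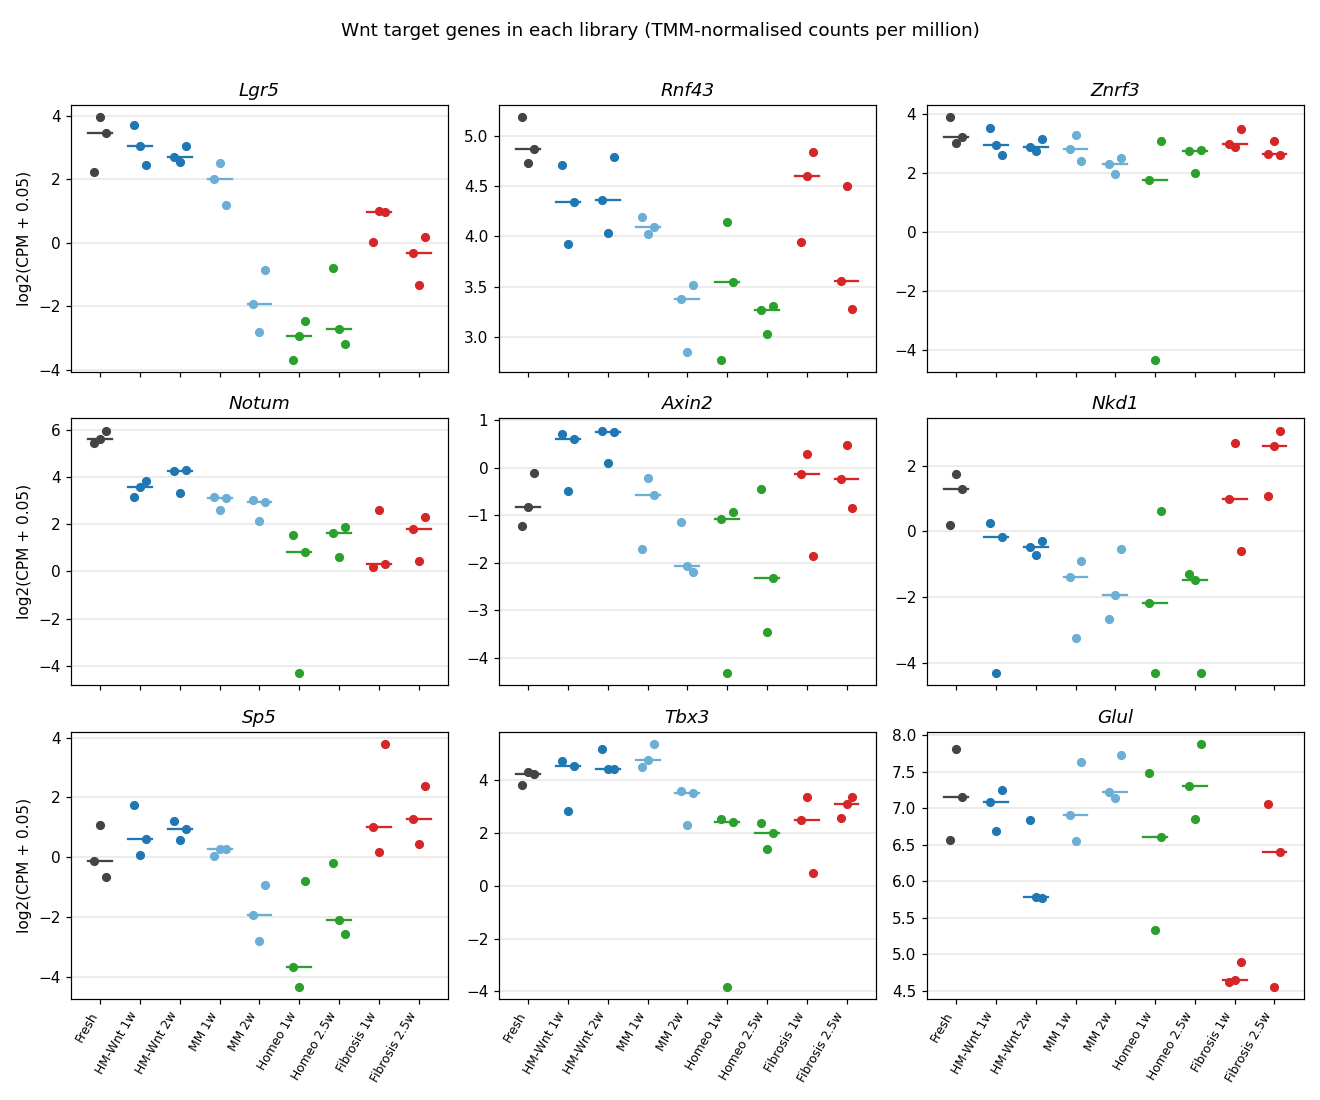
Level of each gene in every library, as log2 of CPM after adding 0.05, with 1 panel per gene, 1 point per library and a bar at the median of the 3 libraries of each condition. Lgr5 sits between 2.24 and 15.5 CPM in all fresh, HM-Wnt and 1-week MM HepOrg libraries and at 0.504 CPM or less in the 3 MM HepOrg libraries at 2 weeks, while Glul is at 54.6 CPM or more in all HepOrg libraries.

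The comparison of MM with HM-Wnt asked how HepOrgs differ once R-spondin, the GSK3 inhibitor and the growth factors are taken away. Its main tests did not use the replicate number, and the counts with that number as a block are given at the end. After 2 weeks 6 of the 9 genes were called between HepOrgs in the 2 media: Lgr5, Sp5, Axin2, Notum and Rnf43 were lower in MM, and Glul was higher. Of all 12989 genes tested, 11.5% were called in that comparison, 4.61% as lower and 6.84% as higher. The median log2 fold change of the 9 genes was -1.28, against -0.02 over all genes. Fewer than 6 were called at 2 weeks with any 1 library of these groups left out. The same held with a stricter count filter and in a joint fit of all 27 libraries, with counts given at the end. The Lgr5 call held in each alternative that tested it. After 1 week 0 of the 9 were called by edgeR, against 2.98% of all genes, 1 of them, Lgr5, had an unadjusted p under 0.05, and DESeq2 called 0 of the 9, against 11.4% of all genes. Averaged over both times 5 were called lower (Lgr5, Axin2, Sp5, Notum and Rnf43), against 21.5% of all genes called, 10% lower and 11.5% higher. Marker sums moved with the medium. At 2 weeks hepatocyte markers summed to 12100 to 17600 CPM in MM and 23600 to 25300 CPM in HM-Wnt, with no overlap, and mesenchyme markers to 68.6 to 179 CPM and 16.7 to 76.5 CPM. At 1 week the hepatocyte sums were 12200 to 27900 CPM and 37600 to 43100 CPM and the mesenchyme sums 103 to 238 CPM and 25.3 to 87.5 CPM. Over both times 1 of 5 hepatocyte markers was called lower and 1 of 8 mesenchyme markers higher in MM. Their part in the members' values was not tested.

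Lgr5, a receptor for R-spondins, showed the largest difference of the 9 at 2 weeks. In HM-Wnt it stood at 12.9, 8.28 and 5.38 CPM at 1 week and at 6.38, 5.82 and 8.20 CPM at 2 weeks. In MM it stood at 3.94, 5.71 and 2.24 CPM at 1 week and at 0.214, 0.0939 and 0.504 CPM at 2 weeks, the last 3 from 8, 4 and 18 counts. The MM libraries at 2 weeks thus lay below every other HepOrg library, whereas at 1 week the highest MM library lay above the lowest HM-Wnt library. The difference at 2 weeks was -4.65 ± 0.58 on the log2 scale, or 25.2-fold lower in MM (adjusted p = 0.00115), and over both times -2.91 ± 0.37 (adjusted p = 0.000556).

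Rnf43 and Znrf3 encode the membrane ubiquitin ligases that remove Frizzled and that R-spondin and LGR5 neutralise. Rnf43 read 20.6, 16.3 and 27.6 CPM in HM-Wnt and 10.3, 7.16 and 11.4 CPM in MM at 2 weeks. The groups did not overlap at that time, and the difference was -1.15 ± 0.26 (adjusted p = 0.0162). Znrf3 read 7.30, 6.64 and 8.81 CPM in HM-Wnt and 4.84, 3.87 and 5.63 CPM in MM at 2 weeks. These groups did not overlap either, but Znrf3 was not called in any comparison of the media (adjusted p = 0.166 at 2 weeks).

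Axin2, a scaffold of the destruction complex, Nkd1, which binds Dishevelled, and Notum, a secreted enzyme that strips the lipid from Wnt proteins, all restrain the pathway. Axin2 read 1.67, 1.03 and 1.62 CPM in HM-Wnt at 2 weeks and 0.401, 0.188 and 0.168 CPM in MM, the latter from 15, 8 and 6 counts. Every MM library lay below every HM-Wnt library, with a difference of -2.49 ± 0.57 (5.61-fold lower, adjusted p = 0.0184). Over both times the Axin2 difference was -1.82 ± 0.39 (adjusted p = 0.00784). Notum read 19.3, 10.0 and 19.9 CPM in HM-Wnt and 8.10, 4.34 and 7.75 CPM in MM at 2 weeks. The lowest HM-Wnt library lay above the highest MM library, and the difference was -1.28 ± 0.32 (adjusted p = 0.0271). Nkd1 was near its detection limit in HepOrgs: it read 0.673, 0.551 and 0.771 CPM in HM-Wnt and 0.107, 0.211 and 0.644 CPM in MM at 2 weeks, from 4, 9 and 23 counts in MM. These groups overlapped and Nkd1 was not called (adjusted p = 0.564). At 1 week 1 HM-Wnt library held no count of Nkd1, which allows up to 0.125 CPM, and the others read 1.13 and 0.843 CPM. The MM libraries of that time read 0.333, 0.0541 and 0.480 CPM. Nkd1 was not called there either (-1.19 ± 1.04, adjusted p = 0.519).

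Sp5 and Tbx3 encode transcription factors, SP5 a repressor that recognises GC-rich sequence and TBX3 a T-box factor found in pericentral hepatocytes. Sp5 read 2.27, 1.43 and 1.87 CPM in HM-Wnt and 0.214, 0.0939 and 0.476 CPM in MM at 2 weeks, from 8, 4 and 17 counts in MM. All MM libraries were below all HM-Wnt libraries, and the difference was -2.82 ± 0.59 (7.07-fold lower, adjusted p = 0.0128). At 1 week the MM libraries read 0.980, 1.16 and 1.16 CPM. Tbx3 read 36.2, 21.6 and 21.4 CPM in HM-Wnt and 11.9, 4.97 and 11.4 CPM in MM at 2 weeks. The groups did not overlap, with a difference of -1.48 ± 0.47 that missed the threshold (adjusted p = 0.0656). It passed with the replicate number as a block, as the pairing of HepOrg libraries allows (-1.56, adjusted p = 0.0148). At 1 week Tbx3 was not lower in MM, at 22.7, 27.6 and 41.7 CPM against 26.5, 7.16 and 23.4 CPM in HM-Wnt.

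Glul, which encodes glutamine synthetase and marks the hepatocytes next to the central vein, was the 1 gene of the 9 that was higher in MM at 2 weeks. It read 149, 141.3 and 212 CPM in MM and 114.3, 55.1 and 54.6 CPM in HM-Wnt at 2 weeks. The lowest MM library lay above the highest HM-Wnt library, and the difference was 1.18 ± 0.34 (2.26-fold higher, adjusted p = 0.0466). The call was lost without any 1 of the 3 MM libraries or without HM-Wnt replicate 2 or 3. Over both times the Glul difference was 0.63 ± 0.24 (adjusted p = 0.0824, and 0.0377 with the replicate number as a block).

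At 2 weeks 8 of the 9 genes had no overlap between the media, 7 lower and 1 higher in MM, and 37.5% of all genes had none. At 1 week 0 of the 9 were free of overlap, against 25.1% of all genes. Whether the effect of the medium changed between 1 and 2 weeks was tested by itself: edgeR called 0 of all genes (0%), although 951 genes and 5 of the 9 had an unadjusted p under 0.05. For Lgr5 that change was -3.49 ± 0.72 (adjusted p = 0.392), and DESeq2 called it with 46 genes in all. Within MM, 0 of the 9 were called between 1 and 2 weeks by edgeR (0.0154% of all genes), with 4 at an unadjusted p under 0.05, and DESeq2 called Lgr5, Sp5 and Tbx3, against 2.38% of all genes. The edgeR difference of Lgr5 in that comparison was -3.86 ± 0.57 (adjusted p = 0.076). Lgr5, Rnf43, Tbx3 and Sp5 had every MM library at 2 weeks below every MM library at 1 week, and 17.9% of all genes had no overlap there. Within HM-Wnt edgeR called 0 of all genes (0%) between the times, with 1134 genes and 1 of the 9 (Glul) at an unadjusted p under 0.05, and DESeq2 called 22 genes and 0 of the 9.

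**Figure D2:**
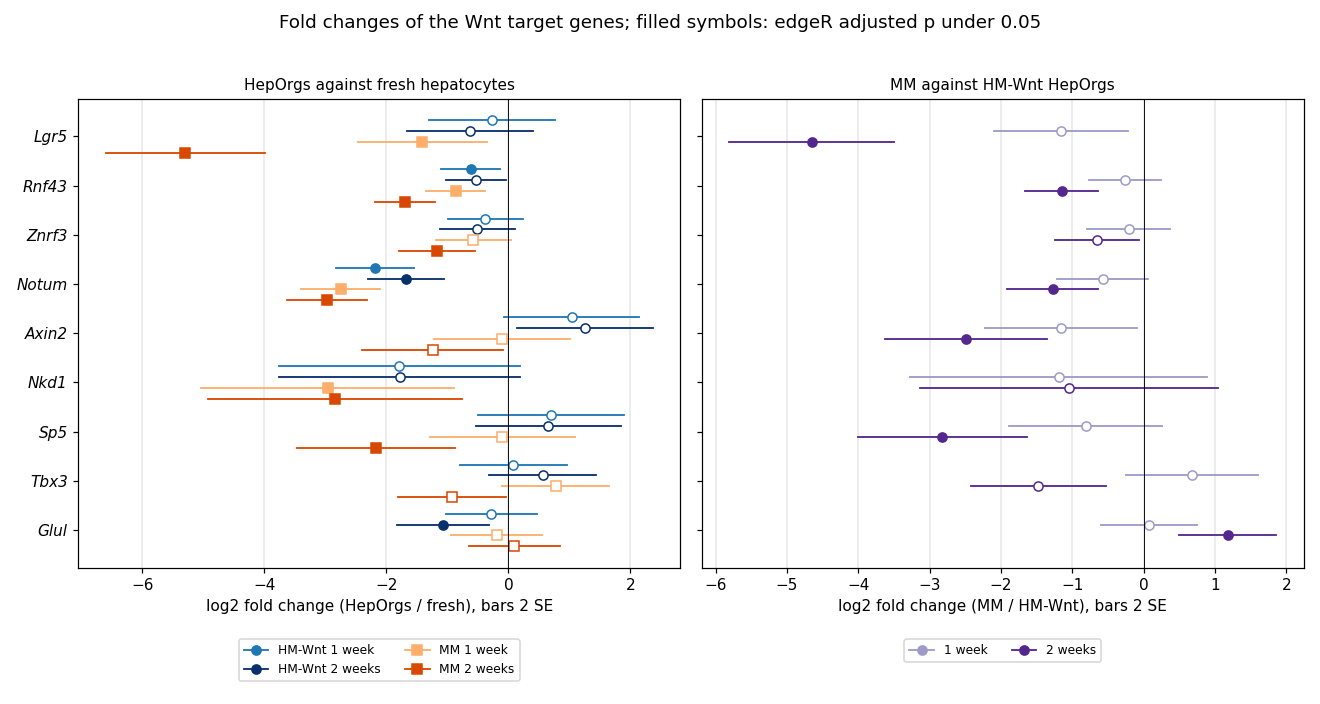
Log2 fold change of each gene between HepOrg groups and against fresh hepatocytes, from edgeR's quasi-likelihood test, with bars of 2 standard errors and filled points for an adjusted p under 0.05. Between MM and HM-Wnt at 2 weeks, 8 of the 9 points lie below 0, from -4.65 for Lgr5 to -0.66 for Znrf3, and Glul alone lies above it at 1.18.

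Freshly isolated hepatocytes served as the reference for the HepOrgs, and the labels do not say whether they came from the same animals. In HM-Wnt 2 of the 9 genes were called lower than in fresh hepatocytes at each time. Notum was lower in every HepOrg group than in fresh hepatocytes, and 6 of the 9 genes were lower in MM at 2 weeks. The 4 comparisons share the fresh libraries, so their values are set side by side and are not independent of each other. The share of all 13405 genes that was called was large throughout: 49.7% in HM-Wnt at 1 week, 51.8% in HM-Wnt at 2 weeks, 42.8% in MM at 1 week and 39.7% in MM at 2 weeks. Against these, 2, 2, 4 and 6 of the 9 genes were called, all of them lower, where 24.8%, 25.7%, 21.3% and 20% of all genes were called lower.

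Notum read 43.8, 48.8 and 63.3 CPM in fresh hepatocytes. In HM-Wnt at 1 week it read 8.82, 12 and 14.4 CPM, and in MM at 1 week 8.84, 6.11 and 8.66 CPM. The fresh libraries lay above all 12 HepOrg libraries. The differences from fresh were -2.19 ± 0.32 in HM-Wnt at 1 week (adjusted p = 0.000102), -1.68 ± 0.31 in HM-Wnt at 2 weeks (adjusted p = 0.000588), -2.75 ± 0.32 in MM at 1 week (adjusted p = 2.54e-05) and -2.97 ± 0.33 in MM at 2 weeks (adjusted p = 1.6e-05). It was the only 1 of the 9 called in all 4 comparisons with fresh hepatocytes.

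Lgr5 read 4.64, 15.5 and 10.9 CPM in fresh hepatocytes, a range that held all 6 HM-Wnt libraries, and it was not called in HM-Wnt. In MM it was called at 1 week (-1.41 ± 0.53, adjusted p = 0.0449) and at 2 weeks (-5.30 ± 0.65, 39.3-fold lower, adjusted p = 4.02e-05). Rnf43 read 36.5, 26.5 and 29.3 CPM in fresh hepatocytes and 18.2, 16.2 and 17.0 CPM in MM at 1 week. The fresh libraries were all above the MM libraries, with differences of -0.86 ± 0.24 at 1 week (adjusted p = 0.0119) and -1.70 ± 0.25 at 2 weeks (adjusted p = 0.000168). In HM-Wnt the Rnf43 difference was -0.62 ± 0.24 at 1 week (adjusted p = 0.048). Znrf3, at 14.8, 8.10 and 9.18 CPM in fresh hepatocytes, was called in MM at 2 weeks (-1.18 ± 0.31, adjusted p = 0.00868).

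Sp5 stood at 0.869, 2.05 and 0.578 CPM in fresh hepatocytes, overlapped them in HM-Wnt and in MM at 1 week, and was lower in MM at 2 weeks (adjusted p = 0.0163, 4.52-fold). Nkd1 read 1.09, 3.28 and 2.40 CPM in fresh hepatocytes. It was called in MM at 1 week (-2.97 ± 1.04, adjusted p = 0.034) and at 2 weeks (-2.84 ± 1.04, adjusted p = 0.0433), from at most 24 counts in any MM library. In HM-Wnt it was also below the fresh libraries at 2 weeks but was not called. Axin2 was not called in any comparison with fresh hepatocytes. Its fresh libraries read 0.380, 0.511 and 0.881 CPM, all below the 3 HM-Wnt libraries at 2 weeks, and that difference did not pass (adjusted p = 0.0728). Glul read 94.3, 223.7 and 142.4 CPM in fresh hepatocytes. It was called in HM-Wnt at 2 weeks (-1.07 ± 0.38, adjusted p = 0.03), where 1 of the 3 libraries overlapped the fresh ones, and not in MM. Tbx3 read 14.1, 19.8 and 18.8 CPM in fresh hepatocytes, and in MM at 2 weeks every library was below that range (adjusted p = 0.116).

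Against fresh hepatocytes 2, 4, 4 and 7 of the 9 genes had no overlap between the groups in HM-Wnt at 1 and 2 weeks and in MM at 1 and 2 weeks. The shares over all genes were 54.4%, 60.7%, 53.8% and 51.4%. At 2 weeks in HM-Wnt 2 of the 4, Axin2 and Tbx3, were above the fresh libraries. The 7 in MM at 2 weeks, Lgr5, Rnf43, Znrf3, Tbx3, Sp5, Nkd1 and Notum, were all below them. Markers of hepatocytes moved with these results, since 4 of 5 were called lower in HM-Wnt at 2 weeks and 5 of 5 in MM at 2 weeks, and 5 of 6 cholangiocyte markers were called higher at both. Endothelial markers were called lower in all 4 comparisons, 5 of 5 in each, with sums of 24.9 to 113 CPM in fresh hepatocytes and at most 1.98 CPM in HepOrgs. Immune markers were called lower in 3 of 4 cases in HM-Wnt at both times and in MM at 1 week, with sums of 22.7 to 174 CPM in fresh hepatocytes and 6.45 to 44.1 CPM in HepOrgs. The part of these cells in the members' values was not tested.

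The other genes of the pathway were read in the same comparisons, and the shares of all genes called between MM and HM-Wnt over both times stand above (21.5%, with 11.5% higher and 10% lower). The counts of most lists lay near that share. Of the Wnt ligands, 2 of 8 tested were called, Wnt5b higher in MM (1.38 ± 0.27, adjusted p = 0.00556) and Wnt10a lower (-2.19 ± 0.65, adjusted p = 0.0344). The only R-spondin tested, Rspo3, was not called by edgeR and was called higher by DESeq2. Of 14 receptors tested, Ror1 and Fzd4 were called higher and Fzd9, Fzd3 and Fzd6 lower, the last at -0.79 ± 0.13 (adjusted p = 0.00188). Of 4 secreted inhibitors 1 was called, Dkk3 (2.19 ± 0.68, adjusted p = 0.0412). Among 12 genes of the cytoplasmic chain 3 were called, all lower by little: Tnks2, Axin1 and Apc, with differences between -0.66 and -0.36. Of 12 nuclear factors, Tcf7l1, a TCF often acting as a repressor, was called higher (1.24 ± 0.23, adjusted p = 0.00363), and Tcf7 (-1.36 ± 0.30, adjusted p = 0.00958) and the co-repressor Tle1 (-1.52 ± 0.40, adjusted p = 0.0213) lower. Of a further 9 Wnt target genes tested, such as Ccnd1, Cd44 and Tnfrsf19, 0 were called by edgeR, 1 had an unadjusted p under 0.05 and DESeq2 called 1 lower, and their median was -0.34 against -0.02 over all genes.

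Genes of the hepatocyte zones were read beside Glul. Of 8 pericentral genes tested between MM and HM-Wnt over both times, 3 were called, all lower in MM. Slc1a2, a glutamate transporter of the cells around the central vein, differed by -4.24 ± 0.36 (adjusted p = 7.08e-05), Lect2 by -1.23 ± 0.40 (adjusted p = 0.047) and Ahr by -1.04 ± 0.12 (adjusted p = 0.000363). Of 11 periportal genes 6 were called by edgeR, all higher in MM, and DESeq2 called 6 higher and 2 lower, with Arg1, Pck1, Cyp2f2, Hsd17b13 and Fbp1 among those higher. The gluconeogenic enzyme Pck1 differed by 2.76 ± 0.62 (adjusted p = 0.00966). The 2 lists thus had medians on opposite sides of 0, at -0.46 and 1.51. The Glul difference had the opposite sign to those of Slc1a2, Lect2 and Ahr. Against fresh hepatocytes both lists were mostly lower: at 2 weeks 7 of 9 pericentral genes were called lower and 2 higher in either medium, and 11 of 12 periportal genes were called lower in HM-Wnt and 8 of 12 in MM. The 4 proliferation markers (Mki67, Top2a, Cdk1 and Ccnb1) were all called lower in MM over both times, and their sum was 23 to 56.5 CPM in HM-Wnt and 4.04 to 21.4 CPM in MM. The part of proliferation in the members' values was not tested.

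**Figure D3:**
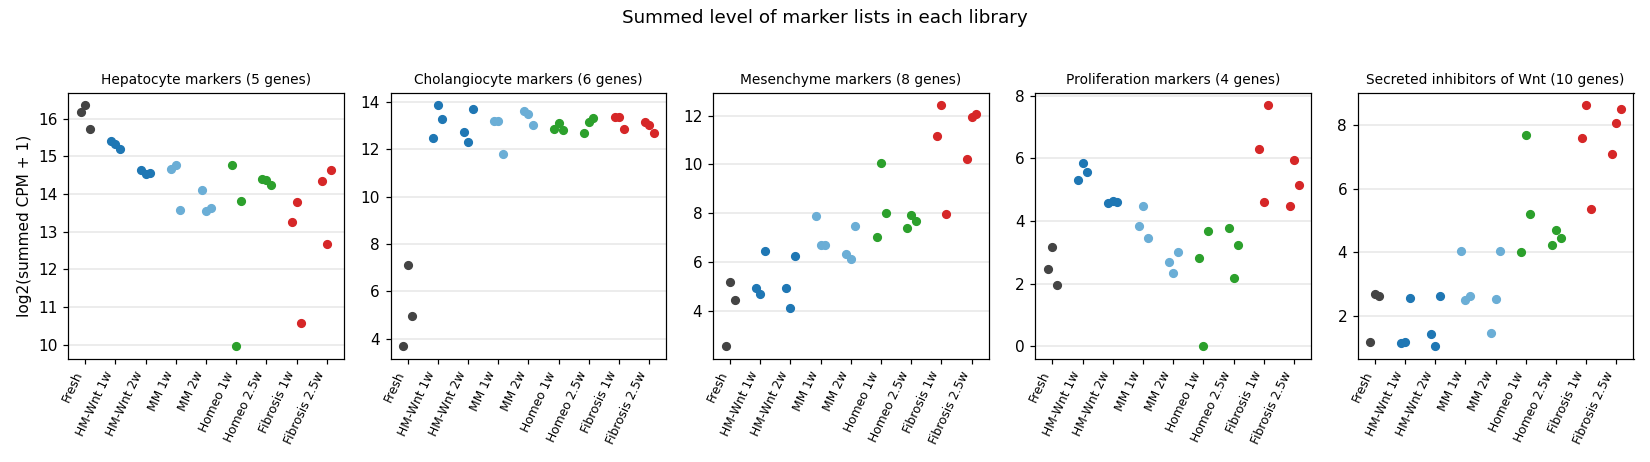
Summed CPM of marker lists in every library, as log2 after adding 1, with 1 panel per list and 1 point per library. Mesenchyme markers lie between 1180 and 4290 CPM in fibrosis-like assembloids at 2.5 weeks and between 166 and 242 CPM in the homeostasis assembloids of that time, and proliferation markers are lower in MM than in HM-Wnt HepOrgs.

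The comparison of assembloids asked how more mesenchyme, in the same medium, bears on these genes. With all 12 libraries 0 of the 9 genes were called between the fibrosis-like and homeostasis ratios by edgeR at 1 week, at 2.5 weeks or over both times, and 0% of all 14255 genes were called in each. At an unadjusted p under 0.05 there were 3, 1 and 5 of the 9, and 2012, 944 and 2678 of all genes. DESeq2 called 1766 genes (12.7%) over both times, 4 of the 9 among them (Lgr5, Glul, Sp5 and Nkd1). Without replicate 2 of the homeostasis assembloids at 1 week, edgeR called 29.7% of 14748 genes over both times (16.2% higher and 13.4% lower) and 5 of the 9: Lgr5, Rnf43, Sp5 and Nkd1 were higher in the fibrosis-like ratio and Glul was lower. The edgeR calls named below for this comparison are those with that library left out. A single edgeR fit of all 27 libraries, which holds it, called 5 of the 9 over both times (15.1% of all genes) and 3 at 1 week (6.21%). With replicate 3 of the fibrosis-like assembloids at 1 week left out as well, the same 5 were called over both times, beside 28.4% of all genes, while 0 of the 9 were called at 1 week (1.87%) or at 2.5 weeks (3.19%), with 3 at an unadjusted p under 0.05 at each time.

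Sp5 read 1.99, 1.09 and 13.7 CPM in fibrosis-like assembloids at 1 week, the last from 1025 counts in the library whose markers stood apart. In homeostasis assembloids of that time it read 0.0283, 0 and 0.526 CPM, from 1, 0 and 32 counts, where the library with no count allows up to 0.0614 CPM. At 2.5 weeks it read 2.40, 1.32 and 5.13 CPM in the fibrosis-like ratio and 0.830, 0.186 and 0.121 CPM in homeostasis. The fibrosis-like libraries lay above the homeostasis libraries at both times. Over both times the difference was 3.90 ± 1.19 with all libraries (adjusted p = 0.129) and 3.59 ± 1.00 without the thin one (adjusted p = 0.0272). It was 2.66 ± 0.83 without both libraries that stood apart (adjusted p = 0.0427).

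Lgr5 read 0.967, 1.97 and 1.89 CPM in the fibrosis-like ratio at 1 week and 0.0283, 0.0818 and 0.132 CPM in homeostasis, the latter from 1, 4 and 8 counts. At 2.5 weeks it read 0.758, 0.353 and 1.09 CPM against 0.528, 0.103 and 0.0604 CPM. The groups were apart at 1 week and overlapped at 2.5 weeks. Over both times Lgr5 differed by 2.96 ± 0.73 with all libraries (adjusted p = 0.0938) and by 2.93 ± 0.75 without the thin one (7.6-fold higher, adjusted p = 0.0206).

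Nkd1 read 2.05, 5.98 and 8.34 CPM in the fibrosis-like ratio at 2.5 weeks and 0.359, 0.310 and 0 CPM in homeostasis. These groups were apart, while at 1 week they overlapped, at 1.94, 6.46 and 0.603 CPM against 0.170, 0 and 1.48 CPM. Over both times Nkd1 differed by 3.49 ± 1.26 with all libraries (adjusted p = 0.172) and by 3.19 ± 0.97 without the thin one (adjusted p = 0.0354). Rnf43 read 15.3, 24.3 and 28.7 CPM against 6.77, 17.6 and 11.7 CPM at 1 week and 11.7, 22.6 and 9.65 CPM against 9.55, 8.09 and 9.82 CPM at 2.5 weeks. Its groups overlapped at both times, at 1 week through the thin library alone, and it differed by 0.81 ± 0.36 with all libraries (adjusted p = 0.248) and by 0.98 ± 0.27 without the thin one (adjusted p = 0.0279).

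Glul ran the other way. It read 24.5, 25.1 and 29.8 CPM in fibrosis-like assembloids at 1 week and 177.8, 40.1 and 97.5 CPM in homeostasis, the middle value from the thin library. The fibrosis-like libraries were all lower. At 2.5 weeks it read 132.5, 23.4 and 84.2 CPM against 157.6, 115.8 and 235.2 CPM, with overlap. Over both times Glul differed by -1.53 ± 0.46 with all libraries (adjusted p = 0.125) and by -1.73 ± 0.39 without the thin one (adjusted p = 0.0151), and at 1 week alone it was the only 1 of the 9 called without that library (-2.38 ± 0.58, adjusted p = 0.0465, beside 8.01% of all genes). That call was lost with replicate 3 of the fibrosis-like assembloids left out too (-2.48 ± 0.70, adjusted p = 0.0768). At 2.5 weeks 0 of the 9 and 0.258% of all genes were called without it.

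Axin2, Znrf3, Tbx3 and Notum were not called in either setting over both times. Axin2 read 0.863, 1.18 and 0.228 CPM in the fibrosis-like ratio at 1 week and 0.799, 1.34 and 0.505 CPM at 2.5 weeks, against 0.425, 0 and 0.477 CPM and 0.679, 0.0414 and 0.151 CPM in homeostasis. Its groups overlapped at both times, and the difference of 1.15 ± 0.74 without the thin library missed the threshold (adjusted p = 0.248). Tbx3 ranged from 1.35 to 10.4 CPM in the fibrosis-like ratio and from 0.0205 to 5.70 CPM in homeostasis, Notum from 1.10 to 5.99 CPM and from 0 to 3.60 CPM, and Znrf3 from 6.08 to 11.2 CPM and from 0 to 8.47 CPM. The thin library set the lower end of all 3 homeostasis ranges. No overlap was seen for 3 of the 9 genes at 1 week (Lgr5 and Sp5 higher, Glul lower), beside 23.8% of all genes, for 4 of the 9 without the thin library (Rnf43 higher as well), beside 49.5%, and for 3 at 2.5 weeks (Tbx3, Sp5 and Nkd1 higher), beside 37.6%. The change of the mesenchyme effect with time was called for 0 of all genes (0%) by edgeR with and without the thin library, with 278 and 505 genes and 0 of the 9 at an unadjusted p under 0.05, and for 0 genes by DESeq2 and limma with it.

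**Figure D4:**
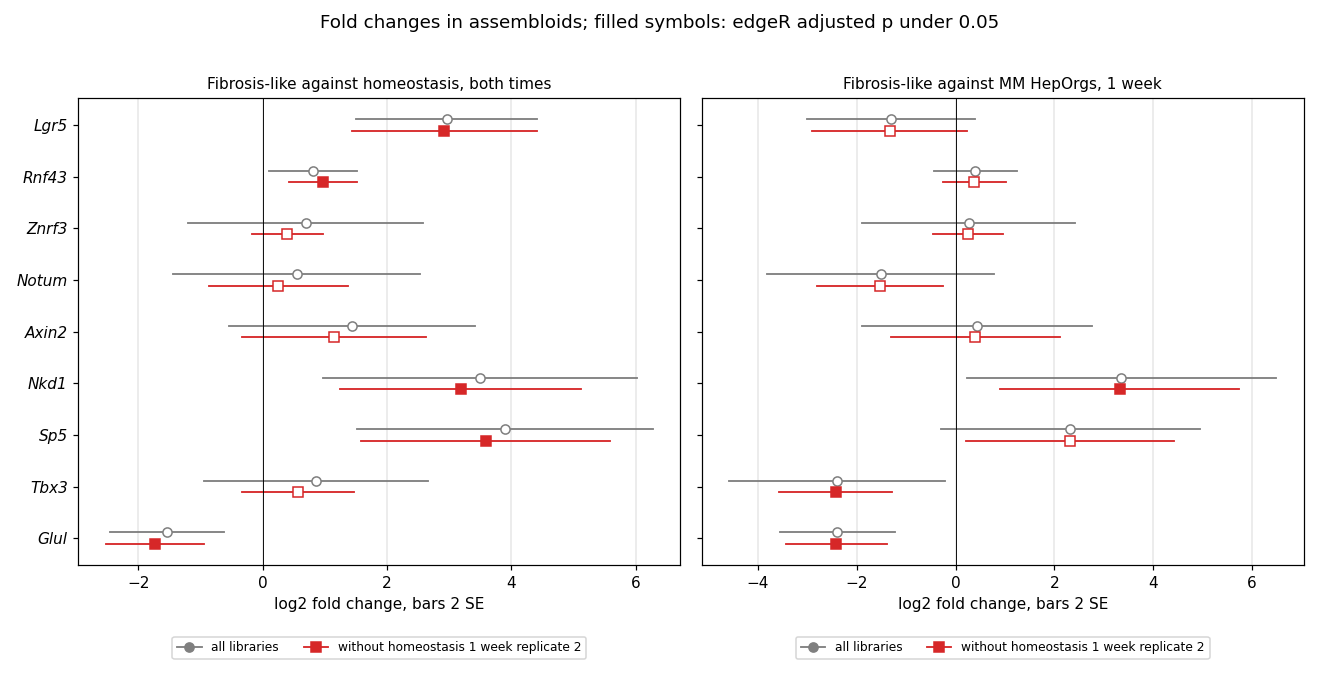
Log2 fold change of each gene between fibrosis-like and homeostasis assembloids over both times (left) and between fibrosis-like assembloids and MM HepOrgs at 1 week (right). Values are from edgeR's quasi-likelihood test with all libraries of the fit and without replicate 2 of the homeostasis assembloids at 1 week. Bars are 2 standard errors, and points are filled for an adjusted p under 0.05. Between the settings the left estimate of Lgr5 is 2.96 and 2.93, that of Glul -1.53 and -1.73, that of Sp5 3.90 and 3.59 and that of Notum 0.55 and 0.25. On the left 5 points are filled without that library and 0 with it, and on the right 3 and 0.

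The groups were set up to differ in mesenchyme. All 8 mesenchyme markers (Col1a1, Col1a2, Col3a1, Pdgfra, Pdgfrb, Lum, Vim and Cdh11) were called higher in the fibrosis-like ratio without the thin library, and also without both libraries that stood apart, with sums of 248 to 5540 CPM at 1 week and 1180 to 4290 CPM at 2.5 weeks, against 131 to 1070 CPM and 166 to 242 CPM in homeostasis. The thin library held the highest of the homeostasis sums, and the lowest fibrosis-like sum, that of replicate 3 at 1 week, lay within the homeostasis range. Also called higher were 4 of 6 cholangiocyte markers and 4 of 4 proliferation markers, while of 5 hepatocyte markers 1, Hnf4a, was called lower (-0.67 ± 0.17, adjusted p = 0.0194). Whether Sp5, Lgr5, Nkd1 and Rnf43 were read from mesenchymal cells, cholangiocytes or hepatocytes cannot be told apart in these libraries.

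The other pathway lists are given without the thin library, where 16.2% of all genes were called higher and 13.4% lower, and none of them had a member called by edgeR with all libraries. Of 12 tested Wnt ligands Wnt4 (3.28 ± 0.61, adjusted p = 0.0104) and Wnt5a (2.07 ± 0.57, adjusted p = 0.0263) were called higher and Wnt5b lower. Rspo3, 1 of 2 R-spondins tested, was called higher (2.38 ± 0.64, adjusted p = 0.024), as were both genes needed for Wnt secretion, Porcn and Wls. Of 17 receptors 8 were called higher, Ror2 among them at 4.05 ± 0.89 (adjusted p = 0.0141). Secreted inhibitors were called higher in 6 of 7 cases (Sfrp1, Frzb, Dkk2, Dkk3, Wif1 and Sfrp2), with Sfrp1 at 4.13 ± 0.88 (adjusted p = 0.0134). Of 10 further Wnt target genes 5 were called higher (Ephb2, Ephb3, Nkd2, Ccnd1 and Cd44) and Prox1 lower. Nkd2, the paralogue of Nkd1, differed by 2.95 ± 0.64 (adjusted p = 0.0139). Lef1, the TCF/LEF factor that is itself a target, was called higher (2.42 ± 0.64, adjusted p = 0.0232). Of 8 pericentral genes other than Glul, 0 were called by edgeR or by DESeq2 and 0 had an unadjusted p under 0.05, and of 12 periportal genes 5 were called lower and Cdh1 higher. With replicate 3 of the fibrosis-like assembloids at 1 week left out too, 28.4% of all genes were called. In that fit 3 of 12 Wnt ligands were called higher and 0 lower, and 6 of 16 receptors and 6 of 7 secreted inhibitors higher. Of the 10 further Wnt target genes 4 were called higher and 1 lower in it.

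Set against HepOrgs alone in the same medium for 1 week, 0 of the 9 genes were called in homeostasis assembloids, with all libraries (0% of 14388 genes) or without the thin one (0.0269% of 14843). With all libraries 2251 genes and 2 of the 9 (Lgr5 and Tbx3) had an unadjusted p under 0.05, and DESeq2 called 2 of the 9 and 897 genes (6.35%). Lgr5 read 0.0283, 0.0818 and 0.132 CPM in these assembloids and 3.94, 5.71 and 2.24 CPM in the MM HepOrgs. The assembloids were lower in every library, with a difference of -5.56 ± 1.03 with all libraries (adjusted p = 0.148) and -5.52 ± 1.16 without the thin library (adjusted p = 0.105). Per the study's methods, HepOrgs for assembloids could be kept in MM before aggregation and were aggregated in MM. The time in MM may therefore have been longer in the assembloids than in the HepOrgs. In MM HepOrgs at 2 weeks Lgr5 read 0.271 ± 0.211 CPM (SD). The part of time in MM in these values was not tested. In fibrosis-like assembloids 0 of the 9 were called by edgeR with all libraries (3 at an unadjusted p under 0.05), beside 0.751% of all genes. DESeq2 called 1 with all libraries, beside 14.7%. Without the thin library of the other group edgeR called 3, beside 34.7%. These were Tbx3 (-2.42 ± 0.57, adjusted p = 0.00678), Glul (-2.41 ± 0.51, adjusted p = 0.0041) and Nkd1 (3.32 ± 1.21, adjusted p = 0.0468), and the same 3 were called, beside 24.6%, with replicate 3 of the fibrosis-like group left out too. The HepOrgs of this comparison are also those of the medium comparison at 1 week, so the values are not independent of it.

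Over the 27 libraries the order of the conditions differed from gene to gene, and most neighbours in that order overlapped. Lgr5 was highest in fresh hepatocytes (10.3 ± 5.43 CPM, SD, n = 3), followed by HM-Wnt at 1 week (8.86 ± 3.80) and 2 weeks (6.80 ± 1.25) and MM at 1 week (3.96 ± 1.73). Its 2 steps without overlap were those from HM-Wnt at 2 weeks to MM at 1 week and from there to fibrosis-like assembloids at 1 week (1.61 ± 0.556 CPM). Sp5 and Nkd1 had their highest means in fibrosis-like assembloids, 5.60 ± 7.05 CPM for Sp5 at 1 week and 5.46 ± 3.18 CPM for Nkd1 at 2.5 weeks, both above their fresh means of 1.16 ± 0.777 and 2.26 ± 1.10 CPM. The first of these rests on replicate 3, the library whose markers stood apart. Axin2 was highest in HM-Wnt at 2 weeks (1.44 ± 0.358 CPM) and lowest in MM at 2 weeks (0.252 ± 0.129 CPM), with overlap at each step between. Notum fell from 52.0 ± 10.1 CPM in fresh hepatocytes to 16.4 ± 5.57 CPM in the next group with no overlap, and no later step was free of it. Tbx3 had its highest mean in MM HepOrgs at 1 week (30.7 ± 9.88 CPM) and Glul in homeostasis assembloids at 2.5 weeks (170 ± 60.6 CPM). Rnf43 and Znrf3, highest in fresh hepatocytes (30.8 ± 5.18 and 10.7 ± 3.58 CPM), had no step without overlap.

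Across the 27 libraries the log2 levels of the members were correlated to different degrees, which is given as a description because the libraries of a condition share their medium and cells. Pearson's r was highest for Tbx3 and Notum (0.77), Lgr5 and Notum (0.763) and Lgr5 and Rnf43 (0.737). Glul had the lowest values, with r of -0.372 to Rnf43, -0.369 to Nkd1 and -0.348 to Sp5. Sp5 and Axin2 had an r of 0.439. Among 14273 genes, those most like each member over these libraries were also found by their r. For Lgr5 they were Cyp2c37 (0.866), Sspo (0.851) and Zap70 (0.842), and for Axin2 Wdr54 (0.857), S1pr3 (0.822) and Atp1b2 (0.777). For Sp5 they were Cdc6 (0.861), Hrob (0.835) and Dlgap5 (0.831), and for Nkd1 Tfpi (0.921), Ifitm1 (0.905) and Cd34 (0.904). Among the genes closest to Notum were Slc16a10 (0.927) and Avpr1a (0.903). Glul was closest to Pdhb (0.887), Ppp1r3b (0.880) and Sar1b (0.877), and Tbx3 to Sbf1 (0.916), Gulo (0.894) and Nrn1 (0.890). Rnf43 was closest to Vamp2 (0.781), Susd4 (0.764) and Sbf2 (0.741), and Znrf3 to Thada (0.944), Nfrkb (0.941) and Mbd6 (0.939). The points of each r share the conditions, and the thin library is among them.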

How the data were processed

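RNA was amplified by SMARTseq2 from freshly isolated hepatocytes, HepOrgs and assembloids. The authors aligned reads with STAR to GRCm39 and counted them per gene with featureCounts, and they deposited raw counts and TPM in 1 table of 37 libraries. The 27 whose names matched a label were used, and 10 libraries were not used. The deposited TPM divide by a length close to the whole gene span, so genes were compared as CPM per kilobase of the canonical transcript. The protocol does not mark strand, so reads of overlapping genes on opposite strands cannot be told apart.

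Counts were tested in R 4.3.3 with edgeR 4.0.16 (TMM; filterByExpr, whose count minimum was 10 and total minimum 15; glmQLFit and glmQLFTest). There were 4 fits, of fresh hepatocytes with HepOrgs, of HepOrgs, of assembloids, and of MM HepOrgs with assembloids, and 18 contrasts. Adjusted p-values are over all genes of a fit and measure the spread between libraries, which may be technical. The script was tested on simulated counts in which 200 genes had known log2 changes of 1, 2 or 3. Of these the medium test over both times recovered 57.6%, 92.4% and 96.9%. The test of the assembloid ratios over both times, with all libraries, recovered 0%, 11.1% and 21%. A gene not called there may therefore still differ. Every other gene was simulated with 1 mean in all groups, and the thin library was not set apart. The shares recovered need therefore not hold for the real libraries. Alternatives were RLE size factors, DESeq2 1.42.0, a stricter filter of 10 counts in each library, no filter, limma 3.58.1 on log2(TPM + 1), a joint fit of the 27 libraries, a block on replicate number, and the omission of each library in turn. Voom with sample weights, and the fits without replicate 2 of the homeostasis assembloids at 1 week, alone or with replicate 3 of the fibrosis-like ones, were added after seeing the data.

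HepOrg libraries of the same number deviated together (18 of 18 pairs with r over 0.1, from 0.127 to 0.503). The numbers were taken as a pairing there, although the labels do not say what a number stands for. The main tests nevertheless used 1 mean per group and no block, so the paired results are those of the alternative with the block. With fresh hepatocytes added, 19 of all 30 pairs had an r over 0.1, and these 30 include the HepOrg pairs. In assembloids 6 of 18 pairs did. Correlations used log2(CPM + 0.5). All 9 members were described. Of the other lists, genes past the threshold were named. A few genes that these rules pick are not reported here. The genes most like a member were those of highest r, for members with at least 10 counts in at least 14 libraries, leaving out predicted gene names. Members and lists were chosen with earlier results of these data known.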

Additional observations from a re-analysis of the deposited data

How the results depend on the processing

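The calls of Lgr5 in MM at 2 weeks against fresh hepatocytes, and in MM against HM-Wnt at 2 weeks and over both times, held under each alternative that tested it. The filter of 10 counts in every library did not, since it leaves 5 of the 9 to test in HepOrgs and 2 in assembloids. The calls of Rnf43 and Notum in MM at 2 weeks against fresh hepatocytes held under all alternatives. Over the 162 results of a gene in a comparison, 105 of 2397 alternative values had the other sign, 0 of them in a result called in either fit. For the 57 of these that any fit called, or that concern the assembloid ratios over both times, 702 of 852 alternative values kept direction and side of the threshold, 75 lost the call, 72 gained it and 3 changed sign. The reversed values were Rnf43 in HM-Wnt at 2 weeks against fresh hepatocytes with limma on log2(TPM + 1) (0.19) and Notum between the assembloid ratios over both times with voom (-0.0012) and without 1 library (-0.0894 to 0.94). The causes were not tested.

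Counts of the 9 genes called are given with the share of all genes called in brackets. Against fresh hepatocytes the count in HM-Wnt at 1 week was 2 (49.7%) and became 1 with 10 counts in every library (48.8%), 1 with no filter (36.8%), 0 with all 27 libraries (19.7%) and 1 to 2 without 1 library. In HM-Wnt at 2 weeks it was 2 (51.8%), and 4 with limma (64.1%), 0 with all 27 libraries (22.2%) and 1 to 2 without 1 library. In MM at 1 week it was 4 (42.8%), and 2 with 10 counts in every library (41.5%), 2 with limma (48.5%), 0 with all 27 libraries (13.7%) and 2 to 3 without 1 library. In MM at 2 weeks it was 6 (39.7%), and 3 with 10 counts in every library (38.8%), 3 with all 27 libraries (12.9%) and 4 to 6 without 1 library. Between MM and HM-Wnt at 2 weeks it was 6 (11.5%), and 3 (12.1%), 1 (0.0478%, or 7 genes) and 2 to 5 (4.35% to 12.1%) under the same changes, and over both times 5 (21.5%), and 2 (22.5%), 1 (0.621%) and 5 to 6.

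Where 0 of the 9 were called, DESeq2 called 1 in the change of the medium effect (0.362%) and 3 in MM between the times (2.38%), where no filter gave 1 and leaving out 1 library 0 to 1. Between the assembloid ratios at 1 week DESeq2 called 2 (6.25%), limma 1 (5.85%), voom 1 (15.6%), all 27 libraries 3 (6.21%) and leaving out 1 library 0 to 1. At 2.5 weeks voom called 2 (7.3%), and over both times DESeq2 called 4 (12.7%), limma 3 (14.4%), voom 4 (32.7%), all 27 libraries 5 (15.1%), leaving out 1 library 0 to 5 and leaving out both libraries that stood apart 5 (28.4%). Against MM HepOrgs, homeostasis assembloids had 2 called with DESeq2 (6.35%), 1 with all 27 libraries (1.34%) and 0 to 1 without 1 library. Fibrosis-like assembloids had 1 with DESeq2 (14.7%), 1 with 10 counts in every library (14.6%), 5 with voom (57.3%), 1 with all 27 libraries (7.29%) and 0 to 3 without 1 library.

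With the replicate number as a block, 7 of the 9 were called between MM and HM-Wnt at 2 weeks (19.6% of all genes) and 6 over both times (28.9%), Tbx3 and Glul being the added ones. Against fresh hepatocytes, where the numbers were not taken as a pairing, Rnf43 in HM-Wnt at 2 weeks was gained (-0.55) and Lgr5 in MM at 1 week lost (-1.40). The block changed no other call.

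Low counts limit Axin2, Lgr5, Sp5 and Nkd1 in MM HepOrgs and homeostasis assembloids, and 3 libraries per group limit every comparison. With limma on log2(TPM + 1) the median of all genes shifted by 0.20 to 0.40 against fresh hepatocytes and to 0.49 between the assembloid ratios over both times.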
